A study of Mus musculus with 24 samples.

Results

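The genes described here are 6 members of the STAT family of transcription factors, Stat2, Stat3, Stat4, Stat5a, Stat5b and Stat6. They were chosen by their symbols among the 23420 gene symbols counted in each library, and all 6 were found. STAT proteins wait in the cytoplasm until a cytokine binds its receptor. Janus kinases (JAKs) attached to the receptor then phosphorylate them, and they pair up, enter the nucleus and bind DNA. In helper T cells, STAT6 carries the IL-4 signal that starts Th2 differentiation, STAT5A and STAT5B carry the IL-2 signal that keeps the cells growing, and STAT4 carries the IL-12 signal of the opposing Th1 fate. In macrophages, STAT2 serves type I interferon, STAT3 serves IL-6 and the anti-inflammatory cytokine IL-10, and STAT6 serves alternative activation by IL-4. What is measured here is the mRNA of these genes, not the phosphorylation that activates their proteins.

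RNA was sequenced from 24 libraries in 10 groups, all from C57BL/6 mice of 8 to 16 weeks. TDG iKO mice carried Tdg fl/fl with a Rosa26-H2B-EGFP/GPI-mCherry LSL reporter, and TET iTKO mice carried floxed alleles (fl/fl) of Tet1, Tet2 and Tet3 with a Rosa26-EYFP LSL reporter. In both, deletion was driven by a tamoxifen-activated Cre that is not limited to one cell type, and Cre-carrying and control (WT) mice alike were given tamoxifen. TET1, TET2 and TET3 oxidise 5-methylcytosine in DNA, and TDG excises the most oxidised forms. Th2 cells (4 WT and 4 TDG iKO libraries) came from naive CD4+ T cells of spleen and lymph nodes. These were stimulated through CD3 and CD28 with IL-4 at 1000 U/ml and an antibody to IFN-γ, and then expanded in IL-2 at 20 U/ml. Bone marrow-derived macrophages (BMDMs) were grown in M-CSF and L929-conditioned medium and taken at 0 h or after 6 h of Kdo2-lipid A (KLA), a pure ligand of Toll-like receptor 4. The Tdg cohort (WT and TDG iKO) and the Tet cohort (WT and TET iTKO) each held 2 libraries per genotype and time. Nothing in the labels says whether replicates came from separate mice or cultures, so p-values measure the spread between these libraries, which may be technical.

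Assigned counts ranged from 4982950 to 26657729 per library, with a median of 14853861. The cell types carried their markers: the summed normalised count of 7 T cell genes was 20116 to 29496 in Th2 cells and 112 to 392 in BMDMs, and that of 7 macrophage genes was 116 to 634 in Th2 cells and 302349 to 412073 in BMDMs. Replicates 3 and 4 of the Th2 cells differed by little more than counting noise within each genotype (the mean chi-square per gene was 1.34 for TDG iKO, 1.51 for WT and 21.3 to 218 for all other Th2 pairs) and were counted as 1 sample, which leaves n = 3 per Th2 genotype. They also stood apart from replicates 1 and 2, so Th2 results are given for both library sets. Replicates differed more in the Tdg cohort (mean chi-square 37.4 to 80.6) than in the Tet cohort (10.9 to 25.2). In bulk RNA, fewer cells of a type and less RNA per cell cannot be told apart. Deletion of some exons need not lower a count per gene, so the counts do not test the genotype labels.

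The 6 genes lie in 3 places of the mm9 genome. Stat2 (chr10:127707629-127729905, plus strand) and Stat6 (chr10:127080042-127098013, plus strand) are 609.6 kb apart. Stat5b (chr11:100642045-100712038, minus strand), Stat5a (chr11:100720665-100746483, plus strand) and Stat3 (chr11:100746412-100800854, minus strand) follow one another, and Stat4 is at chr1:52043992-52164032 on the plus strand. Stat3 and Stat5a run towards each other and share 72 exonic bases at their 3′ ends, and Stat6 shares 40 exonic bases with Nab2 on the other strand. These overlaps were at most 1.01% of a member's exonic bases, and the strand setting of the counting was not given in the sources used here. Stat5a and Stat5b are close paralogs: their coding sequences, aligned over 2294 bases, were identical at 90.2%. Of all 50-base windows in the annotated transcript with the longest coding sequence, 17.1% of those of Stat5a and 11.8% of those of Stat5b were held by both (13.4% and 9.2% when they were searched as unbroken runs in the genome), so read pairs that lay wholly inside such windows could not be assigned to either gene and counts of both are uncertain to that extent. The longest identical coding run was 324 bases. Its first 150 bases, from base 571 of both coding sequences, are shown because no 50-base read within them tells one gene from the other (annotation GENCODE vM1):
Stat5a and Stat5b: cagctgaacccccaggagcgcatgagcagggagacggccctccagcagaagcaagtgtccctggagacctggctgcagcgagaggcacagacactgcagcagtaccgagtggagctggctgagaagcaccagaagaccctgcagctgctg

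RefSeq promoters (250 bases before to 50 bases after a start, GRCm38.p6) were matched to all 6 genes, with 9 promoters between them. The promoters of Stat2 and Stat4 are shown because the main test called these genes between TET iTKO and WT macrophages at 0 h, though edgeR did not. A further reason is that TET proteins act on CpG sites, of which the promoters hold very different numbers. Whether TET proteins act on these promoters was not tested. The 250 bases before each start are given on the gene's own strand, with every CpG in capitals. Stat2 has 14 CpG sites in these bases, and the start sites of Stat4 have 1 and 3. DNA methylation was not analysed here.
Stat2: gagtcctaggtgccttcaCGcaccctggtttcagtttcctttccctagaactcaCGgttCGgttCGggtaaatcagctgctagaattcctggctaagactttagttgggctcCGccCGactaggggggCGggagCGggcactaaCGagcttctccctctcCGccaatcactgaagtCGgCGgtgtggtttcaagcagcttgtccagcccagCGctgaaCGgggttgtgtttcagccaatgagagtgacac
Stat4, start 1: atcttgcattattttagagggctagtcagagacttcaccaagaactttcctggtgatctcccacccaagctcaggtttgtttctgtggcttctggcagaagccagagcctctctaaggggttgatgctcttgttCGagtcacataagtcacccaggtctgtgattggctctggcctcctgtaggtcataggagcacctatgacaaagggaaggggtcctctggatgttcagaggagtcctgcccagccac
Stat4, start 2: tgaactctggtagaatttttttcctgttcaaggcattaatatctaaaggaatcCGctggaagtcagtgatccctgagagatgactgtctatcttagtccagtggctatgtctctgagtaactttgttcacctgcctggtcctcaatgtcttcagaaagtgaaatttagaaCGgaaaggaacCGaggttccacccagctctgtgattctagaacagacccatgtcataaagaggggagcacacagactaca

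Over the whole 300 bases, the CpG count was 22 for Stat2, 15 for Stat3, 2 and 4 for Stat4, 5 and 27 for Stat5a, 50 and 7 for Stat5b and 8 for Stat6, against a median of 7 over 32851 promoters. The letters TTCNNNGAA, the core of the GAS element that STAT dimers bind, were searched on both strands. They occurred in none of the 9 promoters and in 8.3% of all promoters. The letters AAANNGAAA, a core of the ISRE element that the complex of STAT2 and IRF9 binds, occurred in 10.6% of all promoters. Among the members they were found in Stat2, in the second start of Stat4 and in the second start of Stat5b. In Stat2 the match began 222 bases before the start, on the minus strand, and is shown in capitals within its flanks:
Stat2: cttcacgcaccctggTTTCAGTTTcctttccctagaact

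Per kilobase of exon, the STAT genes stood in the same order in all 8 BMDM groups by their group means: Stat2 highest, then Stat6, Stat3, Stat5b, Stat5a and Stat4. In WT BMDMs of the Tet cohort at 0 h, this scale ran from 1081 normalised counts per kb for Stat2 to 3.94 for Stat4. In WT Th2 cells the range was much narrower, from 484 normalised counts per kb for Stat6 to 109 for Stat5a. There Stat6 was followed by Stat3 (414), Stat5b (328), Stat2 (266) and Stat4 (255), all on the same scale. Stat2 and Stat4 changed places in TDG iKO Th2 cells (202 and 270 normalised counts per kb), where their values overlapped. The length used was that of all annotated exons of a gene together, 9527 bases for Stat3 and 7133 for Stat5a. Their transcripts with the longest coding sequence had 4516 and 3605 bases. The annotation used for counting is not known, so the order in Th2 cells depends on this choice of length.

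**Figure D1:**
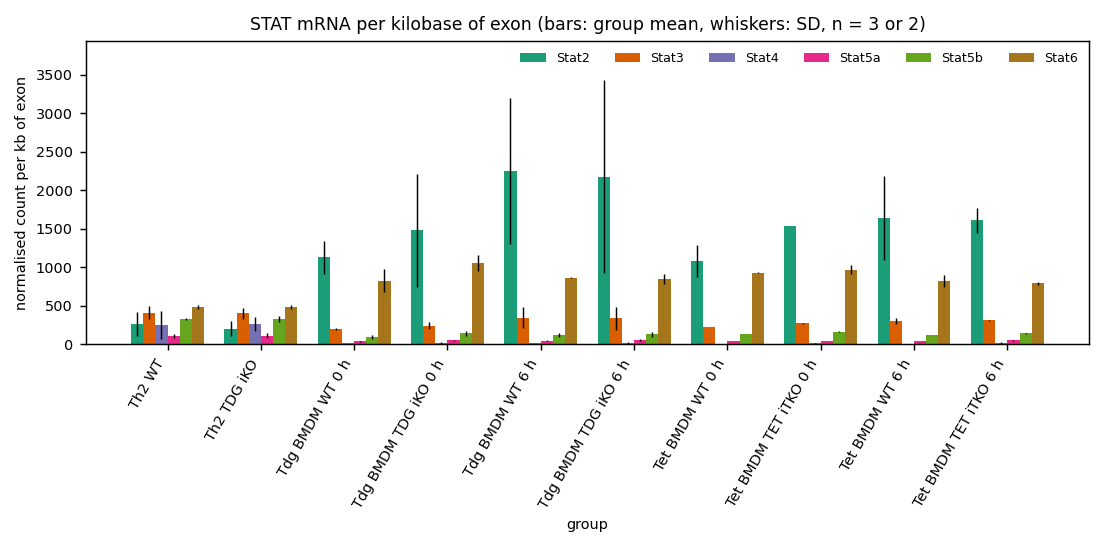
Normalised count per kilobase of exon (y axis) of the 6 genes in the 10 groups (x axis), with bars for group means and whiskers for the SD (n = 3 for Th2, n = 2 for BMDM groups). Stat2 and Stat6 are the tallest bars in every BMDM group, and Stat4, at 3.94 to 17.5 per kb, is close to the axis there.

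The first comparison asked which STAT genes differ between WT Th2 cells and WT BMDMs at 0 h. All 6 genes passed the threshold (DESeq2 adjusted p under 0.05), against 54.8% of all genes tested in this comparison. Stat3, Stat4, Stat5a and Stat5b were higher in Th2 cells, and Stat2 and Stat6 were higher in BMDMs. Cell type and culture medium cannot be told apart here.

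Stat4, the IL-12 effector, showed the widest range of the 6. Its normalised counts in WT Th2 cells were 488 and 458 in replicates 1 and 2, and 1465 and 1455 in replicates 3 and 4. In WT BMDMs at 0 h they were 46.1 and 48.7 (Tdg), then 14.4 and 10.4 (Tet). The log2 fold change was 4.81 ± 0.63 (SE, DESeq2 adjusted p = 1.16e-13). It was 3.30 when only libraries numbered 1 to 12 (Th2 replicates 1 and 2 and the Tdg cohort) were used, and 5.97 with only the Tet cohort for BMDMs.

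Stat5a and Stat5b, the IL-2 effectors, were both higher in Th2 cells. Stat5b had 1872, 1837 and, as the mean of replicates 3 and 4, 1745 normalised counts in WT Th2 cells. In WT BMDMs at 0 h its values were 642 and 445 (Tdg), then 736 and 757 (Tet). Its log2 fold change was 1.49 ± 0.24 (SE, DESeq2 adjusted p = 5.62e-09). Stat5a followed with 868, 874 and 599 normalised counts in WT Th2 cells against 265 to 328 in the 4 BMDM libraries, a log2 difference of 1.37 ± 0.24 (SE, DESeq2 adjusted p = 4e-08). Stat3 had 4449, 4387 and 2998 normalised counts in WT Th2 cells and 1802 to 2095 in the BMDM libraries. This was a log2 difference of 0.98 ± 0.22 (SE, DESeq2 adjusted p = 2.72e-05).

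Stat2 went the other way. It had 835, 696 and 1980 normalised counts in WT Th2 cells and 4312, 5646, 4111 and 5419 in WT BMDMs at 0 h. The log2 fold change was -2.05 ± 0.39 (SE, DESeq2 adjusted p = 6.6e-07), so Stat2 was 4.13-fold lower in Th2 cells. Without Th2 replicates 3 and 4 it was -2.66 on the log2 scale. Stat6, the effector of the IL-4 in the Th2 culture, was also lower there, with 2064, 2052 and 2275 normalised counts against 3167 to 4139 in BMDMs. Its log2 fold change was -0.86 ± 0.19 (SE, DESeq2 adjusted p = 2.43e-05).

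Of 96 other genes of the pathway (JAKs, cytokine receptors, inhibitors and STAT targets), 88 were tested in this comparison, and 28 were higher and 40 lower in Th2 cells. Their median log2 fold change was -0.54, beside 0.13 over all genes. The smallest adjusted p-values belonged to genes of the IL-2 and STAT5 axis. Il2ra and Il2rb, subunits of the IL-2 receptor, had 15399 to 36285 and 7448 to 10949 normalised counts in WT Th2 cells, against 15 and 4 raw counts in all 4 WT BMDM libraries together. Cish, an inhibitor that STAT5 induces, had 4111 to 4970 normalised counts in Th2 cells and 10 raw counts in the 4 BMDM libraries. Bcl2, a survival factor, was 28.8-fold higher in Th2 cells (DESeq2 adjusted p = 3e-66). Among the JAKs, Jak3, which pairs with the common gamma chain, was higher in Th2 cells (log2 fold change 3.32, DESeq2 adjusted p = 1.56e-22), as was Jak2 (1.72, DESeq2 adjusted p = 8.68e-18). Jak1 (0.22, DESeq2 adjusted p = 0.582) and Tyk2 (0.02, DESeq2 adjusted p = 0.955) did not pass. Of 12 tested genes on the list of the STAT2 partner Irf9 and interferon targets, 11 were lower in Th2 cells and none was higher.

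**Figure D2:**
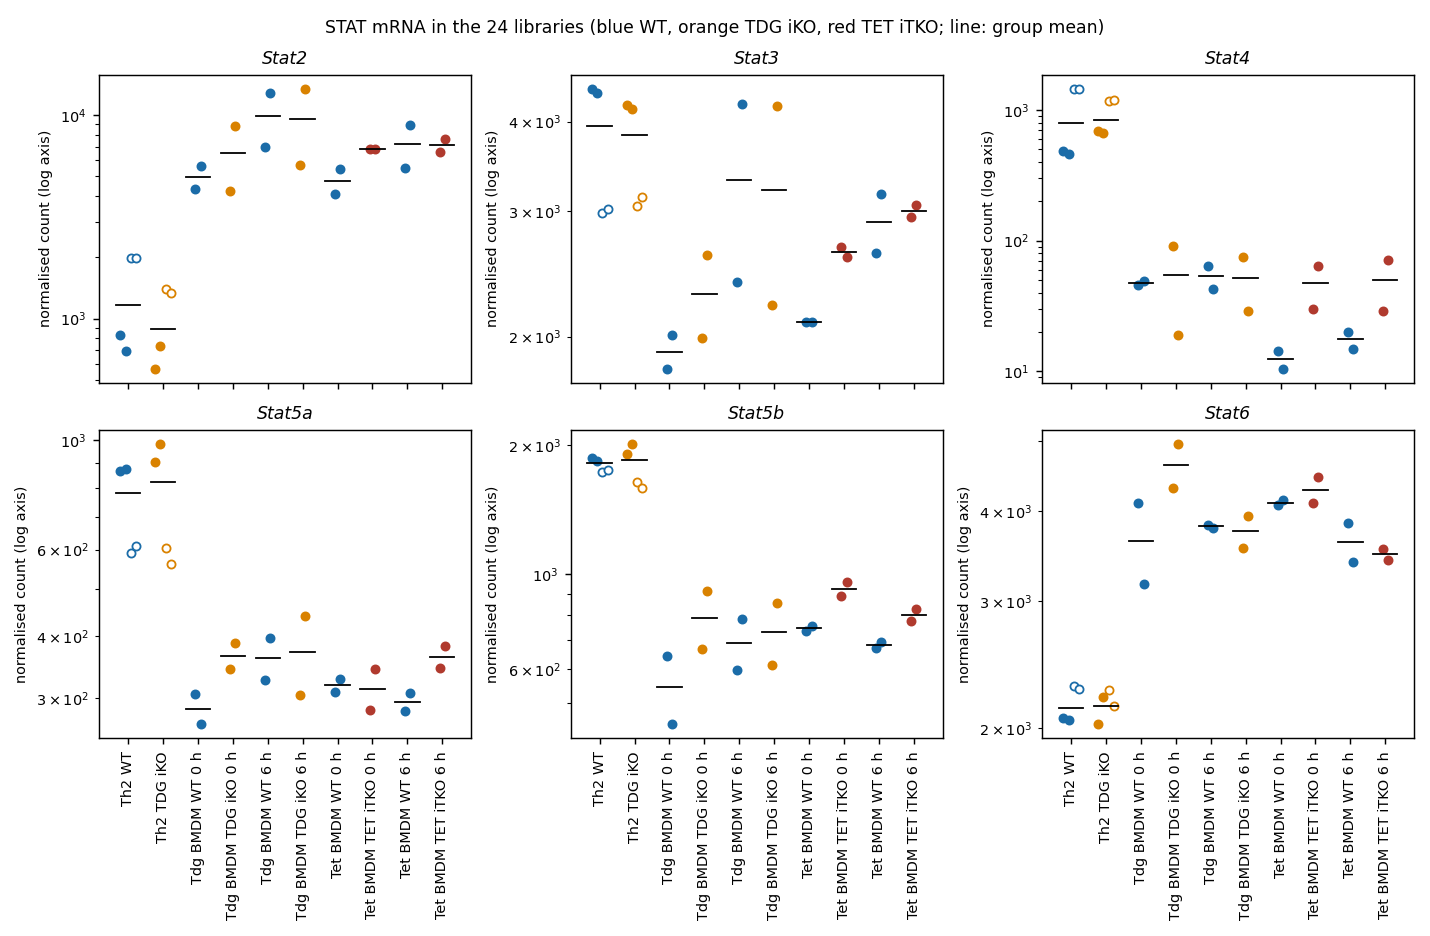
Normalised counts on a log axis (y axis) in every library of the 10 groups (x axis), 1 panel per gene. Open circles are Th2 replicates 3 and 4, and lines are group means with these 2 averaged. For Stat2 and Stat4 the open circles of both genotypes lie above the filled ones, and for Stat3 and Stat5a below.

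Across all 10 groups, the highest group mean of Stat2 was 11.1 times the lowest, that of Stat4 68.5 times and those of the others 2.07 to 3.40 times. For Stat2 the 4 BMDM groups at 6 h headed the order, and 8 of the 9 neighbouring pairs of groups overlapped. The exception was the step from BMDMs to Th2 cells. For Stat3 only the last step, from WT BMDMs of the Tet cohort at 0 h to those of the Tdg cohort at 0 h, was free of overlap. For Stat5a the step from Th2 cells to BMDMs was the only one free of overlap. For Stat5b the steps from Th2 cells to TET iTKO BMDMs at 0 h and from these to TET iTKO BMDMs at 6 h were free of it. So was its last step, to WT BMDMs of the Tdg cohort at 0 h. For Stat6 the steps free of overlap were those from WT BMDMs of the Tet cohort at 0 h, the third group in the order, to the fourth, and from BMDMs to Th2 cells. For Stat4 the steps from Th2 cells to BMDMs and the last 2 steps, into WT BMDMs of the Tet cohort at 6 h and then at 0 h, were free of overlap. Lack of overlap was common: it held for 64.0% of 10093 genes between TET iTKO BMDMs at 0 h and 6 h. Between WT BMDMs of the Tet cohort at 0 h and 6 h it held for 65.7%. Stat5b and Stat4, respectively, did not pass in these comparisons (DESeq2 adjusted p = 0.31 and 0.655). The share over all genes was not counted for the other steps.

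Within Th2 cells the library sets differed more than the genotypes. Stat2 had 2.59 times as many normalised counts in replicates 3 and 4 of WT as in replicates 1 and 2, and 2.11 times as many in TDG iKO. For Stat4 these ratios were 3.09 and 1.73. Stat3 (0.679 and 0.738) and Stat5a (0.688 and 0.618) went the opposite way, and Stat5b (0.941 and 0.824) and Stat6 (1.11 and 1.04) moved least. Summed interferon targets with Irf9 (15 genes) moved with Stat2, at 837 to 1075 normalised counts in replicates 1 and 2 and 3691 to 4955 in replicates 3 and 4. The summed Th1 markers Ifng and Tbx21 were lower where Stat4 was higher, at 19.3 to 43.1 in replicates 3 and 4 and 76.5 to 186 in replicates 1 and 2. The ribosomal RNA gene Rn45s took 0.84% to 8.34% of assigned counts in replicates 1 and 2, and 0.35% to 0.39% in replicates 3 and 4. The part of these values in the differences between library sets was not tested.

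Over the 10 group means, the genes whose pattern on the scale of log2(normalised count + 1) was most like that of Stat2 were Pydc3, Phf11a and Gm14446 (Pearson r 0.997 to 0.999, among 10133 genes). For Stat3 they were Zeb1, Ankrd27 and Ppp2r5a (r 0.977 to 0.987), and for Stat4 Depdc1a, Bhlhb9 and Psat1 (r 0.993 to 0.995). For Stat5a they were Ptbp1, Wdr82 and Rbm5 (r 0.993 to 0.994), for Stat5b Akap8, Ppid and Hira (r 0.989 to 0.990), and for Stat6 Lasp1, Zscan29 and Mef2a (r 0.990 to 0.992). These values describe 10 points, in which the contrast of Th2 cells with BMDMs weighs most. Between members, r was 0.950 for Stat5a and Stat5b, 0.949 for Stat4 and Stat5a, 0.891 for Stat4 and Stat5b and 0.890 for Stat2 and Stat6. Stat5b ranked 658 of the 10133 genes in likeness to Stat5a.

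The second comparison asked how 6 h of KLA moved STAT mRNA in macrophages. In WT BMDMs of the Tet cohort, 2 of the 6 genes were called, against 24.1% of all genes tested, and both rose: Stat2 and Stat3. Stat2 had 4111 and 5419 normalised counts at 0 h and 5515 and 8914 at 6 h. The groups did not overlap, as in 65.7% of 10093 genes (those averaging 50 or more normalised counts), and the higher 0 h library and the lower 6 h library were close. The log2 fold change was 0.61 ± 0.18 (SE, DESeq2 adjusted p = 0.00348). Stat3 had 2095 and 2094 normalised counts at 0 h and 2618 and 3165 at 6 h, a log2 difference of 0.47 ± 0.12 (SE, DESeq2 adjusted p = 0.000447). Both calls rested on replicate 2 at 6 h: without it, Stat2 was at 0.21 (DESeq2 adjusted p = 0.47) and Stat3 at 0.33 (DESeq2 adjusted p = 0.0544). Without replicate 1 at 0 h the call of Stat2 was also lost.

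The other 4 genes did not pass in these cells. Stat6 had 4071 and 4139 normalised counts at 0 h and 3848 and 3399 at 6 h (log2 fold change -0.17, DESeq2 adjusted p = 0.272). Stat5a and Stat5b were at -0.10 and -0.12, with 95% intervals of -0.47 to 0.26 and -0.38 to 0.14 on the log2 scale. Stat4 had 16 and 16 raw counts at 0 h and 23 and 16 at 6 h, and its log2 fold change of 0.52 had a 95% interval of -0.73 to 1.77.

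In TET iTKO BMDMs, 1 gene was called, against 22.3% of all genes tested. Stat6 fell by 0.29 ± 0.11 on the log2 scale (SE, DESeq2 adjusted p = 0.0279), from 4104 and 4457 normalised counts at 0 h to 3547 and 3423 at 6 h. The call was lost without any 1 of the 4 libraries, with adjusted p-values of 0.0603 to 0.291 (DESeq2). Stat2, with 6774 and 6781 normalised counts at 0 h and 6597 and 7608 at 6 h, had a log2 fold change of 0.07 (95% interval -0.28 to 0.41), and Stat3, with 2666 and 2583 and then 2940 and 3053, one of 0.19 (95% interval -0.04 to 0.42). Neither passed (DESeq2 adjusted p = 0.865 and 0.275).

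Whether the KLA response differed between TET iTKO and WT was tested as an interaction, and none of the 6 genes passed, against 0.436% of all genes tested. The interaction was -0.54 ± 0.25 for Stat2 (SE, log2 scale, DESeq2 adjusted p = 0.928) and -0.28 ± 0.17 for Stat3 (DESeq2 adjusted p = 1.00). At an unadjusted p under 0.05, 1 of the 6 was counted (Stat2, DESeq2 unadjusted p = 0.0302), beside 544 of 11917 genes. Stat2 was called without replicate 1 of WT at 6 h (-0.85, DESeq2 adjusted p = 0.00404).

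In the Tdg cohort the KLA changes of Stat2 and Stat3 in WT were larger, but so was the spread. Stat2 had 4312 and 5646 normalised counts at 0 h and 6944 and 12869 at 6 h, a log2 difference of 0.99 ± 0.51 (SE, DESeq2 adjusted p = 0.26). Stat3 had 1802 and 2010 at 0 h and 2386 and 4233 at 6 h, a log2 difference of 0.80 ± 0.42 (SE, DESeq2 adjusted p = 0.268). The groups did not overlap for either gene, as in 49.3% of 10093 genes, and replicate 2 was far above replicate 1 at 6 h for both. None of the 6 genes was called in WT (8.6% of all genes tested were), none in TDG iKO (7.08% of all genes tested) and none for the difference between the responses (0% of all genes tested, and 37 genes at an unadjusted p under 0.05). At an unadjusted p under 0.05, 0 of the 6 were counted in any of these tests (DESeq2), beside 2305 of 11633 genes in WT and 1679 of 11633 in TDG iKO. In TDG iKO BMDMs Stat2 had 4250 and 8790 normalised counts at 0 h and 5686 and 13492 at 6 h (log2 fold change 0.57, DESeq2 adjusted p = 0.842). Stat3 had 1988 and 2601 and then 2215 and 4203 (0.49, DESeq2 adjusted p = 0.807), and Stat6 was at -0.30 (DESeq2 adjusted p = 0.829).

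The interferon targets were compared with Stat2 in the same libraries. In the Tdg cohort, replicates 2 at 6 h, which had 12869 (WT) and 13492 (TDG iKO) normalised counts of Stat2, had 272148 and 290991 of the 15 summed target genes. Replicates 1 at 6 h had 126544 and 128555 of the targets. At 0 h replicate 2 was above replicate 1 for both values in both genotypes. In WT, replicates 1 and 2 had 73903 and 136803 of the targets, and 4312 and 5646 of Stat2. In TDG iKO they had 75923 and 132403 of the targets, and 4250 and 8790 of Stat2. Between genotypes, replicate 2 of WT had more of the targets and less of Stat2 than that of TDG iKO. In the Tet cohort the sum at 6 h was 110293 and 211739 in the WT replicates and 125441 and 146577 in TET iTKO. The part of interferon signalling in the values of Stat2 was not tested.

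**Figure D3:**
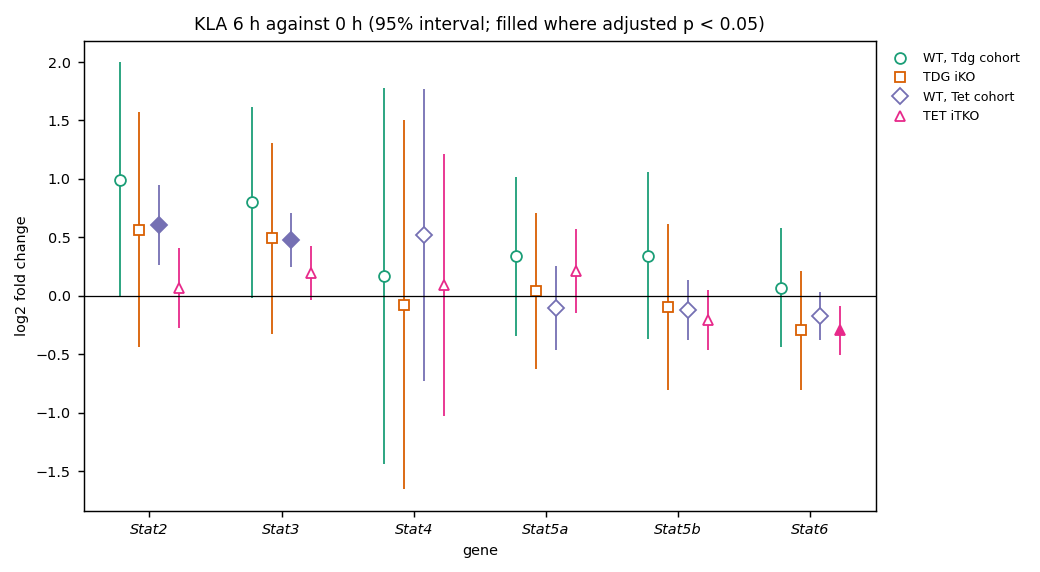
Log2 fold change of KLA 6 h against 0 h (y axis) for the 6 genes (x axis) in the 4 genotype groups of BMDMs, with 95% intervals and filled symbols where the DESeq2 adjusted p was under 0.05. Stat2 and Stat3 in WT of the Tet cohort (0.61 and 0.47) and Stat6 in TET iTKO (-0.29) are filled, and the intervals of the Tdg cohort are wider.

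Of 81 other pathway genes tested for KLA in WT of the Tet cohort, 35 rose and 8 fell, with a median log2 fold change of 0.43 beside -0.01 over all genes. Of 82 tested in TET iTKO, 25 rose and 11 fell. Socs3, the feedback inhibitor that STAT3 induces, rose 17.5-fold in WT and 6.11-fold in TET iTKO (DESeq2 adjusted p = 6.43e-130 and 3.08e-55). Its interaction of -1.52 ± 0.23 passed (SE, log2 scale, DESeq2 adjusted p = 2.26e-07). Mean normalised counts of Socs3 in WT and TET iTKO were 294 and 888 at 0 h and 5109 and 5431 at 6 h, so the genotypes differed more at 0 h. Jak2, the kinase of IFN-γ and GM-CSF receptors, rose 6.80-fold in WT and 5.99-fold in TET iTKO. Lcn2, an iron-binding acute-phase protein on the list of STAT3 targets, rose 5.25-fold in WT, as did Csf3r, the receptor of G-CSF (2.95-fold). Lcn2 and Csf3r were also called higher in TET iTKO. Il4ra, the IL-4 receptor chain that signals to STAT6, and Mrc1, a mannose receptor on the list of STAT6 targets, were 2.34-fold and 3.18-fold lower at 6 h in TET iTKO. Il4ra and Mrc1 were also called lower in WT, and neither passed for the interaction. Lcn2 (-1.01, DESeq2 adjusted p = 0.00831) and Il21r (-0.72, DESeq2 adjusted p = 0.0488) were the other pathway genes whose interaction passed. Mean normalised counts of Lcn2 in WT and TET iTKO were 212 and 1299 at 0 h and 1101.5 and 3377 at 6 h. Jak1 and Tyk2 rose in both genotypes (log2 fold changes 0.33 to 0.90), and Jak3 did not pass (0.23 in both).

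Of the 15 genes of the list of Irf9 and interferon targets, 8 rose in WT of the Tet cohort (Mx1, Mx2, Isg15, Ifit1, Ifit2, Oasl1, Oasl2 and Rsad2), with a list median of 0.96 on the log2 scale. In TET iTKO 0 of the 15 passed, with a list median of 0.20. None of the 15 passed for the interaction itself, where the list median was -0.89. In the Tdg cohort 14 of 81 pathway genes rose and 3 fell in WT, and 11 rose and 2 fell in TDG iKO. Socs3 rose 25.2-fold and 19.8-fold, and Jak2 7.19-fold and 6.14-fold. Bcl2 was 4.64-fold and 3.76-fold lower, and Pim2, a kinase on the list of STAT5 targets, rose in WT (log2 fold change 3.45, DESeq2 adjusted p = 2.02e-05). Ccl22, a chemokine on the list of STAT6 targets, rose 6.48-fold in TDG iKO. Ccl22 was also called higher in WT, and Pim2 was also called higher in TDG iKO. Tyk2 rose in WT (log2 fold change 1.58, DESeq2 adjusted p = 0.0257) but did not pass in TDG iKO (0.98, DESeq2 adjusted p = 0.361), and Jak1 and Jak3 passed in neither.

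The third comparison asked whether loss of TET proteins moved STAT mRNA in macrophages. At 0 h, 2 of the 6 genes were called in TET iTKO against WT, against 7.72% of all genes tested, and both were higher in TET iTKO: Stat2 and Stat4. Stat2 had 6774 and 6781 normalised counts in TET iTKO and 4111 and 5419 in WT. The groups did not overlap, as in 54.9% of 10093 genes, and the log2 fold change was 0.51 ± 0.18 (SE, DESeq2 adjusted p = 0.0494), which is only just under the threshold. With edgeR the adjusted p was 0.183, and with TMM factors in DESeq2 it was 0.0527. Without WT replicate 1 it was 0.77, at a log2 fold change of 0.32, and it was also above the threshold without either TET iTKO replicate (0.739 and 0.932, DESeq2).

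Stat4 had 29.7 and 64.5 normalised counts in TET iTKO and 14.4 and 10.4 in WT. In raw counts these were 29 and 84 in TET iTKO and 16 and 16 in WT. The groups did not overlap, as in 54.9% of 10093 genes. The log2 fold change was 1.95 ± 0.61 (SE, DESeq2 adjusted p = 0.0241), or 3.85-fold with a 95% interval of 1.68 to 8.84. With edgeR the adjusted p was 0.0702. Without replicate 2 of TET iTKO the log2 fold change was 1.28 (DESeq2 adjusted p = 0.796). The level itself was low: all values of Stat4 in the Tdg cohort, 18.8 to 91.2 normalised counts, were above those of WT in the Tet cohort at 0 h. The call was also lost without either WT replicate (DESeq2 adjusted p = 0.137 and 0.322).

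Some, but not all, markers of other cell types moved with Stat4. The summed normalised count of 4 B cell genes was 73.8 and 291 in the TET iTKO replicates at 0 h and 25.1 and 20.8 in WT, and at 6 h it was 54.6 and 273 in TET iTKO and 25.3 and 36.3 in WT. In TET iTKO the replicate with the higher B cell sum, replicate 2, was also the one with more Stat4. In WT replicate 1 had more of both at 0 h, and replicate 2 had the higher B cell sum but less Stat4 at 6 h. The 7 T cell genes did not move with Stat4: they summed to 265 and 303 in TET iTKO and 251 and 392 in WT at 0 h. Of these, Lck, a T cell kinase, had 3 and 36 raw counts in TET iTKO and 2 and 6 in WT. Cd4 had 226 and 310 raw counts in TET iTKO and 262 and 569 in WT. Cd3e, Cd3d and Cd3g, the defining T cell genes, had 0 to 4 raw counts in each of these libraries. Neutrophil genes (3 in the files, 752 and 1282 in TET iTKO, 292 and 432 in WT) and myeloid progenitor genes (5 genes, 273 and 1002 in TET iTKO, 169 and 406 in WT) were summed in the same way. The 7 macrophage genes summed to 303101 and 302349 in TET iTKO and 369500 and 355654 in WT. The dendritic cell genes Flt3 and Zbtb46 summed to 15.4 and 13.1 in TET iTKO and 2.69 and 0 in WT, and the NK cell genes Ncr1 and Klrb1c to 0 in all 4 libraries. The part of other cells in the difference in Stat4 was not tested.

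**Figure D4:**
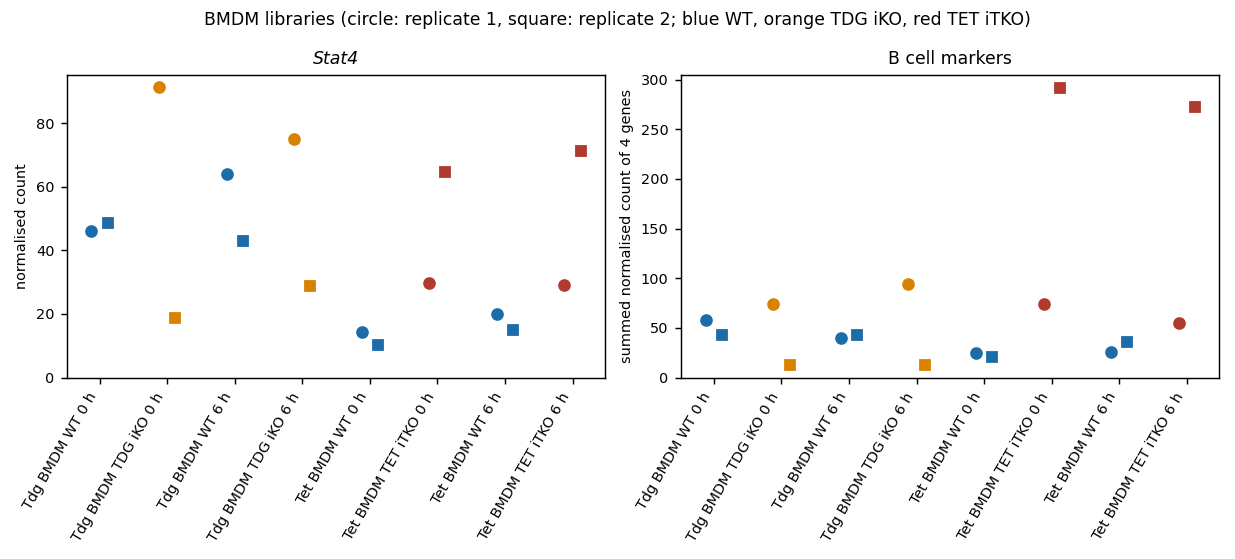
Normalised count of Stat4 (left) and summed normalised count of 4 B cell marker genes (right) in the 16 BMDM libraries, by group (x axis), with circles for replicate 1 and squares for replicate 2. In TET iTKO both values are higher in replicate 2 than in replicate 1, and in TDG iKO both are higher in replicate 1. In WT the replicate orders of the 2 values are opposite in every group except the Tet cohort at 0 h.

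Stat3 had 2666 and 2583 normalised counts in TET iTKO and 2095 and 2094 in WT at 0 h. The groups did not overlap, as in 54.9% of 10093 genes, and the log2 fold change of 0.33 ± 0.12 did not pass (SE, DESeq2 adjusted p = 0.0666). Stat5b had 891 and 959 against 736 and 757, also without overlap, and did not pass (0.31 ± 0.13, SE, DESeq2 adjusted p = 0.149). Stat5a (-0.02, 95% interval -0.38 to 0.34) and Stat6 (0.06, 95% interval -0.15 to 0.27) showed the smallest differences. When only the 4 libraries at 0 h were fitted, Stat3 passed as well (DESeq2 adjusted p = 0.0193).

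After 6 h of KLA none of the 6 genes was called in TET iTKO against WT, where 6.39% of all genes tested were called. Stat4 had 29.2 and 71.3 normalised counts in TET iTKO and 20.1 and 14.9 in WT, again without overlap (1.52 ± 0.60, SE, DESeq2 adjusted p = 0.125). Without TET iTKO replicate 2 it was at 0.74 (DESeq2 adjusted p = 0.886), and 47.5% of 10093 genes had no overlap in this comparison. Stat2 had 6597 and 7608 against 5515 and 8914, so that the WT libraries lay on both sides of the TET iTKO libraries (log2 fold change -0.03, 95% interval -0.37 to 0.31). Stat5a had 344 and 383 against 282 and 307 (0.30, DESeq2 adjusted p = 0.463), and Stat5b was at 0.23, Stat3 at 0.05 and Stat6 at -0.06. At an unadjusted p under 0.05, 1 of the 6 was counted (Stat4, DESeq2 unadjusted p = 0.0113), beside 1894 of 11917 genes.

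**Figure D5:**
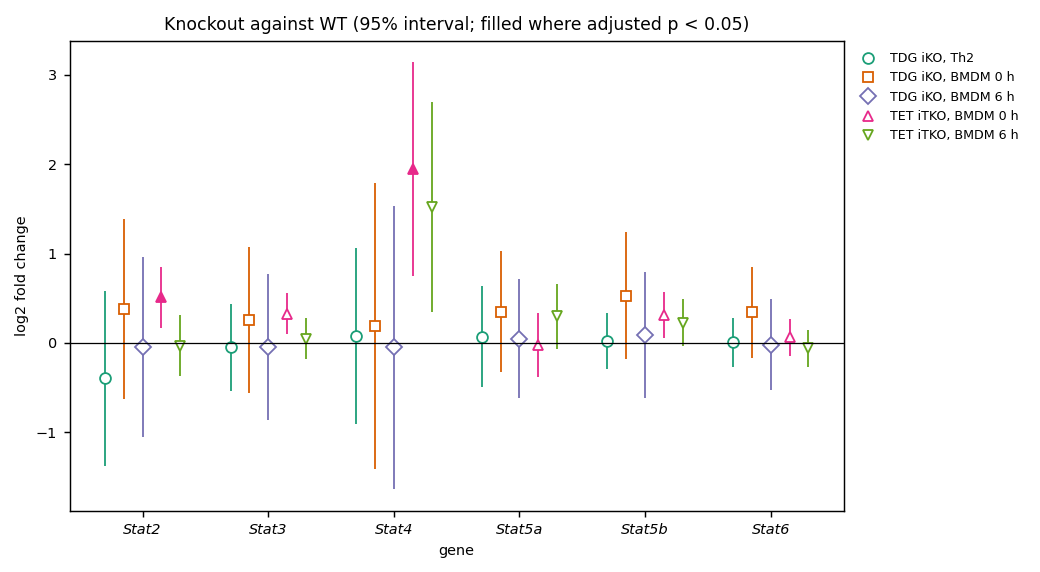
Log2 fold change of knockout against WT (y axis) for the 6 genes (x axis) in Th2 cells and BMDMs, with 95% intervals and filled symbols where the DESeq2 adjusted p was under 0.05. Stat2 (0.51) and Stat4 (1.95) in TET iTKO BMDMs at 0 h are the only filled symbols, and the intervals of TDG iKO all include 0.

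Among the other pathway genes, 15 were higher and 4 lower in TET iTKO at 0 h, of 81 tested. Their median log2 fold change was 0.35, beside 0.01 over all genes. Lcn2 was 6.16-fold higher (1299 against 212 normalised counts, DESeq2 adjusted p = 4.12e-49), Socs3 3.03-fold (888 against 294, DESeq2 adjusted p = 5.68e-18) and Il23r, the IL-23 receptor chain that signals to STAT3 and STAT4, 4.85-fold (185 against 38.6, DESeq2 adjusted p = 1.21e-15). Mrc1 was 2.18-fold lower (DESeq2 adjusted p = 3.24e-07). Jak2 was higher (log2 fold change 0.60, DESeq2 adjusted p = 0.000634), and Jak1 (0.06), Jak3 (0.12) and Tyk2 (0.06) did not pass. Of the 9 genes on the list of STAT3 targets, 3 were higher (Socs3, Bcl3 and Lcn2) and 0 lower. Of the 15 genes on the list of Irf9 and interferon targets, 0 passed, although the list median was 0.57 and the summed level was 108037 and 115791 in TET iTKO against 64968 and 94260 in WT.

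At 6 h, 7 pathway genes were higher and 4 lower in TET iTKO, of 81 tested. Lcn2 (3.05-fold higher), Il23r (2.36-fold higher) and Mrc1 (2.32-fold lower) were called again. Csf2ra, the GM-CSF receptor chain, was 1.58-fold lower at 6 h, and it had also passed the threshold at 0 h. Jak2 passed (log2 fold change 0.42, DESeq2 adjusted p = 0.0369), and Jak1 (0.06), Jak3 (0.12) and Tyk2 (0.11) did not.

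The fourth comparison asked whether loss of TDG moved STAT mRNA. None of the 6 genes was called in Th2 cells, in BMDMs at 0 h or in BMDMs at 6 h (DESeq2, edgeR likewise), and in each of these comparisons 0% of all genes tested were called. At 0 h that count was not stable: without WT replicate 1, 1148 genes were called (598 higher and 550 lower in TDG iKO), none of them a member. At an unadjusted p under 0.05 the test counted 77, 265 and 34 genes, and none of the 6. With the pairing of the Th2 samples as a block, 541 genes were counted and 13 called in Th2 cells, and Stat2 was at -0.35 ± 0.14 (SE, log2 scale, DESeq2 unadjusted p = 0.0145, adjusted p = 0.802). In Th2 cells Stat2 had 566, 731 and, as the mean of replicates 3 and 4, 1368 normalised counts in TDG iKO and 835, 696 and 1980 in WT, with a log2 fold change of -0.40 (95% interval -1.37 to 0.58, DESeq2 adjusted p = 1.00). Stat4 had 694, 671 and 1180 in TDG iKO and 488, 458 and 1460 in WT. TDG iKO was therefore above WT in replicates 1 and 2 and below it in replicates 3 and 4, and the log2 fold change was 0.08 (95% interval -0.91 to 1.07). The values overlapped between genotypes for all 6 genes, as they did for nearly all genes (3.22% of 10093 genes had no overlap).

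Stat6 and Stat5b were the most tightly bounded in Th2 cells in the main test, which does not use the pairing. Stat6 had 2023, 2206 and 2200 normalised counts in TDG iKO and 2064, 2052 and 2275 in WT, a log2 fold change of 0.01 (95% interval -0.27 to 0.28). Stat5b had 1911, 2016 and 1618 in TDG iKO and 1872, 1837 and 1745 in WT (0.02, 95% interval -0.29 to 0.33). Stat3 was at -0.05 (95% interval -0.54 to 0.44) and Stat5a at 0.07 (95% interval -0.50 to 0.64). With the pairing as a block the standard errors were smaller, and none of these genes was called. The log2 fold changes were then -0.039 ± 0.098 for Stat3, 0.229 ± 0.167 for Stat4 and 0.056 ± 0.126 for Stat5a (SE). Those of Stat5b and Stat6 were 0.013 ± 0.109 and 0.006 ± 0.105 (SE). With only Th2 replicates 1 and 2, none of the 6 genes was called either, although 46 of all genes were.

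In BMDMs the Tdg cohort allowed less precision. At 0 h the log2 fold changes of TDG iKO against WT ran from 0.19 for Stat4 to 0.53 for Stat5b, with 0.04 as the median over all genes. For Stat5b the values were 668 and 911 normalised counts in TDG iKO and 642 and 445 in WT, which did not overlap (as in 21.9% of 10093 genes), and the 95% interval of the log2 fold change was -0.18 to 1.24. Stat6 had 4308 and 4953 against 4102 and 3167, also without overlap (0.34, 95% interval -0.17 to 0.85). WT replicate 2 at 0 h, which was the lowest of these libraries for Stat5a, Stat5b and Stat6, was also the library with the fewest assigned counts of the series. At 6 h the log2 fold changes lay between -0.05 and 0.09, with the widest 95% interval for Stat4 (-1.64 to 1.54) and the narrowest for Stat6 (-0.53 to 0.49). None of the pathway genes (83 tested in Th2 cells and 94 in BMDMs) was called between TDG iKO and WT.

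The effects of TET and TDG loss were also compared with each other, each knockout against its own WT, and none of the 6 genes differed at 0 h (0.328% of all genes tested did) or at 6 h (0.0658% of all genes tested did), and none had an unadjusted p under 0.05, beside 723 of 11289 genes at 0 h and 423 of 13670 at 6 h. The difference for Stat4 was 1.75 ± 1.06 at 0 h and 1.58 ± 1.05 at 6 h (SE, log2 scale, DESeq2 adjusted p = 0.826 and 1.00). For Stat2 it was 0.13, with a 95% interval of -1.10 to 1.37, and 0.03, with one of -1.20 to 1.26. Among the pathway genes, Ccnd2, a cyclin on the list of STAT5 targets, differed at both times (3.06 and 2.79, DESeq2 adjusted p = 0.00296 and 0.0479), and Lcn2 at 0 h (2.74, DESeq2 adjusted p = 0.0004). None of the 4 JAKs differed at either time.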

How the data were processed

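Polyadenylated RNA was read as paired 50-base reads on either of 2 Illumina instruments, from directional libraries. The authors aligned reads to mm9 with HISAT2 and counted them per gene with HTSeq. The deposited values were raw counts, whole numbers with no normalization. The annotation, strand setting and versions of the aligner and counter were not given in the sources used here. Pairs with several alignments, or that fit more than 1 gene, are left unassigned by HTSeq. The submitters' processing notes name DESeq2 1.30.0. One further gene of the family is not reported here.

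Groups and replicate numbers came from the labels. The 5 tallies of unassigned pairs were left out of library totals, and 48.4% to 67.2% of pairs were assigned. The Wald test of DESeq2 1.42.0 (R 4.3.3) with median-of-ratios size factors was run on the whole table, and p-values were adjusted by Benjamini-Hochberg over all genes, with a threshold of 0.05. Th2 replicates 3 and 4 were summed within a genotype. Each BMDM cohort was 1 fit of 4 groups, the comparison of TET with TDG effects used all 16 BMDM libraries, and changes of the KLA response were interaction terms. Normalised counts used size factors over all 24 libraries, and means and SD in Th2 cells took replicates 3 and 4 as 1 value. Intervals of 95% are Wald intervals. edgeR 4.0.16 (quasi-likelihood test, TMM), DESeq2 with TMM factors, a low-count filter (10 or more counts in 2 or more libraries), blocks, subsets of libraries and leaving out each library were alternatives. Both tests were tested on simulated data.

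Replicate numbers in the labels paired the Th2 samples: deviations of same-numbered samples from their group means correlated with r = 0.504, 0.723 and 0.917 across genes. The members, the pathway and marker lists and the tests were chosen with earlier results of these data known. Named were all 6 members, the JAKs, the 4 pathway genes with the smallest adjusted p among those called in each comparison, and the 3 genes most like each member among those averaging 50 or more normalised counts. Genes called on a list are named for some of the counts given, not for all.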

Additional observations from a re-analysis of the deposited data

Results flagged for a closer look

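Stat5a was lower after KLA in every WT library of the Tet cohort and higher in every TET iTKO library. Its normalised counts were 309 and 328 at 0 h and 282 and 307 at 6 h in WT, and in TET iTKO they were 284 and 343 at 0 h and 344 and 383 at 6 h, so neither pair of times overlapped. Among 10093 genes, 65.7% in WT and 64.0% in TET iTKO did not overlap either. Tested as an interaction, the difference was 0.32 ± 0.26 on the log2 scale (SE, DESeq2 adjusted p = 1.00), which did not pass. Neither response passed on its own (DESeq2 adjusted p = 0.778 in WT and 0.492 in TET iTKO).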

How the results depend on the processing

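Of 912 log2 fold changes of single members under the alternatives, 84 had the other sign from the main test, none of them called in either. The 6 calls of Th2 against BMDMs were 6 under each alternative run, and the highest group of each member was the same with TMM scaling and without Rn45s. In TET iTKO against WT at 0 h, where 2 were called, edgeR called 0 and TMM factors in DESeq2 called 1 (Stat4). In the KLA response of WT in the Tet cohort, 1 of the 2 calls was left with only the groups compared (Stat3). Leaving out each library in turn gave 0 to 1 calls for TET iTKO against WT at 0 h, 0 to 2 for KLA in WT of the Tet cohort, 0 for KLA in TET iTKO, where 1 was called, and 0 to 1 for the interaction with TET. The causes were not tested.

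With the replicate number as a block, 2 members were called for KLA in WT of the Tdg cohort (Stat2 and Stat3, main count 0), and 2 with the block nested in genotype. The nested block called 1 for the interaction with TET (Stat2, -0.51). In no other comparison did the block change the number of members called, including that of TDG iKO with WT Th2 cells, where it was 0. In BMDM groups, with 2 pairs, the labels do not say that numbers mark a shared mouse or day, and same-numbered libraries correlated with r = 0.0202 to 0.821.

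Limits are set by n = 2 in BMDM groups and by depth for Stat4, whose raw counts in BMDM libraries were 16 to 96. The 95% intervals use the standard errors of DESeq2, which include the spread between libraries.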
